A study of Mus musculus with 14 samples.

Results

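The granule proteases of mast cells and basophils were examined in cultured mouse bone marrow cells, as 10 genes chosen by name. Of these, 8 encode proteases stored by mast cells: the tryptases Tpsab1, Tpsb2 and Tpsg1, the chymases Cma1, Mcpt1, Mcpt2 and Mcpt4, and the carboxypeptidase Cpa3. The other 2 encode the basophil proteases Mcpt8 and Prss34. All 10 were found in both deposited tables, among 55367 gene symbols, and all 10 passed the filter on low counts in each experiment. The names were picked with the differences in both experiments already known, so those differences are given as a description, with no p-value.

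Mast cells and basophils are granulocytes that carry the high-affinity IgE receptor and develop from related progenitors in the marrow. Their secretory granules hold active proteases bound to the proteoglycan serglycin, which are released with histamine when the receptor is engaged. Tryptases cut after basic residues, chymases after aromatic residues, and carboxypeptidase A3 removes single residues from the end of a peptide. The cytokines SCF and IL3, both present in these cultures, sustain mast cell growth, and IL3 also expands basophils.

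The cells were marrow cells depleted of lineage-positive cells, labelled wild-type, and grown with SCF, IL6 and IL3. Of the first experiment, 3 libraries came from cells given a luciferase control lentivirus and 3 from cells given the mutant SETBP1D868N, written SETBP1-D868N here, in the same vector backbone, made from 500 ng of total RNA. In the second experiment every library came from cells carrying the same mutant, kept for 4 days with DMSO (4 libraries) or with 2.5 µM PF-9363 (4 libraries), made from 100 ng of total RNA. SETBP1 is a nuclear protein mutated in myeloid leukemia, and PF-9363 inhibits MYST histone acetyltransferases. The second experiment has no luciferase group, and the promoter driving the transgene is not given in the sources used here. The labels do not say that replicates were separate animals or cultures, so tests measure the spread between these libraries, which may be technical.

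Total counts were 60147266 to 68730322 for luciferase and SETBP1-D868N libraries and 7083731 to 10359093 for DMSO and PF-9363 libraries. Levels are given in CPM, the count of a gene scaled to its library total with TMM factors. Each ± is an SD over the libraries of a group (n = 3 for luciferase and SETBP1-D868N, n = 4 for DMSO and PF-9363). Fold changes are log2 values with their standard error (SE). The endogenous Setbp1 row held 5 to 6 counts in luciferase libraries, 20 to 24 in SETBP1-D868N libraries and 0 to 2 in the second experiment, where it gave no check of the labels. The progenitor genes Kit and Cd34 were present in every group, and the T cell marker Cd3e held at most 3 counts in each library. A list of 8 neutrophil lineage genes, from early to late granule genes, summed to 16250 to 25418 CPM across the first experiment.

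The chymase genes Cma1, Mcpt1, Mcpt2 and Mcpt4 and the basophil gene Mcpt8 lie in 1 cluster on chromosome 14 of GRCm38 (GENCODE M21) and span 143.8 kb of it. Cma1 (chr14:55941451-55944675, minus strand) and Mcpt8 (chr14:56082166-56085273, minus strand) are the outer genes of that span. Mcpt1 (chr14:56017971-56020384, plus strand), Mcpt2 (chr14:56042041-56044642, plus strand) and Mcpt4 (chr14:56059629-56062313, minus strand) lie between them. The tryptase genes share a cluster on chromosome 17 with the other basophil gene, and together span 76.0 kb of it. There Prss34 (chr17:25298394-25300165, plus strand) is followed by Tpsab1 (chr17:25343245-25345562, minus strand), Tpsb2 (chr17:25366305-25369098, plus strand) and Tpsg1 (chr17:25369273-25374442, plus strand). Cpa3 stands alone on chromosome 3 (chr3:20215620-20242181, minus strand).

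Promoter windows from RefSeq (GRCm38.p6, 250 bases before to 50 bases after the annotated start) were matched for 7 of the 10 genes, not for Tpsab1, Tpsb2 or Mcpt2. The windows of Cpa3, of 3 chymases and of both basophil genes are printed to set the 2 kinds of protease gene side by side, and the windows of Tpsg1 are not printed. Capitals mark matches, on either strand, to 2 motifs. The GATA words were AGATAA as well as AGATAG, and with T in front TGATAA as well as TGATAG. The E-box words, which MITF can bind, were CACATG with its reverse complement CATGTG, and also the palindrome CACGTG. Each sequence reads 5′ to 3′ on the strand of its gene.
Cpa3, chr3:20242132-20242431, minus strand: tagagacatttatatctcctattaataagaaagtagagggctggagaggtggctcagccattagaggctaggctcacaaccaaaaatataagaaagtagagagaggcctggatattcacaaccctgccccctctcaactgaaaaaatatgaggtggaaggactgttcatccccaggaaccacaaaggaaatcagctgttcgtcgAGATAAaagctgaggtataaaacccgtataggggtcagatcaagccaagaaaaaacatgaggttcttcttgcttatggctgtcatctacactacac
Cma1, chr14:55944626-55944925, minus strand: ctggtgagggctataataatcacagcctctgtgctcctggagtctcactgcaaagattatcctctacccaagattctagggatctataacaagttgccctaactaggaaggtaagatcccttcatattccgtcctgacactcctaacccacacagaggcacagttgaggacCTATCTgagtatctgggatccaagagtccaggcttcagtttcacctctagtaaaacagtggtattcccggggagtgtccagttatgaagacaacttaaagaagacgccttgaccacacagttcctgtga
Mcpt1, chr14:56017714-56018013, plus strand: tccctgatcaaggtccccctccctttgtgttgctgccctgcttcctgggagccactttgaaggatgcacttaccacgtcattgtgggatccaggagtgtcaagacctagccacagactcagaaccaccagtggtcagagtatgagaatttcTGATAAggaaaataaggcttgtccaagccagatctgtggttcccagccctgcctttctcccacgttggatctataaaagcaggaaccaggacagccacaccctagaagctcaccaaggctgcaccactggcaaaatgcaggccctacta
Mcpt4, chr14:56062261-56062560, minus strand: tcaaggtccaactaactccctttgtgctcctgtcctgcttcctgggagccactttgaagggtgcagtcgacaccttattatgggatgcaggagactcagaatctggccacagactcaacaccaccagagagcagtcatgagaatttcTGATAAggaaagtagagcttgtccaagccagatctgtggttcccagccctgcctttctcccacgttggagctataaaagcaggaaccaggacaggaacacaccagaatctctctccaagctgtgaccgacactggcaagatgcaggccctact
Mcpt8, chr14:56085148-56085447, minus strand: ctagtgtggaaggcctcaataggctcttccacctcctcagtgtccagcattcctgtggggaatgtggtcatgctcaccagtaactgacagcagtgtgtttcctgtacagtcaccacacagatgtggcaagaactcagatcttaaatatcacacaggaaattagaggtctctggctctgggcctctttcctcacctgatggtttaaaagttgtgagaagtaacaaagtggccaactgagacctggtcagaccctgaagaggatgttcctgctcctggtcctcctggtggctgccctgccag
Prss34, chr17:25298144-25298443, plus strand: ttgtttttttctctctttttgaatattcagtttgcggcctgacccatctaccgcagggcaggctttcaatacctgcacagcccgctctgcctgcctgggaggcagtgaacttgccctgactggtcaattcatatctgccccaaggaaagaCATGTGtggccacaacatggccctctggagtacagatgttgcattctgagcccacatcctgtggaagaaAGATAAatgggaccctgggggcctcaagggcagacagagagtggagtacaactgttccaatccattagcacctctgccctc

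A GATA word was present in the window of all 5 mast cell genes matched (Cpa3, Cma1, Mcpt1, Mcpt4 and Tpsg1) and in that of Prss34, and was absent from the Mcpt8 window. Over 32851 promoter windows of the same length, 29.8% held a GATA word. The word began at position −46 in Cpa3, −79 in Cma1, −99 in Mcpt1, −103 in Mcpt4 and −31 in Prss34, counted from the annotated start. An E-box word was found only in Prss34 among these 6 printed windows, at position −100, against 20.4% of all windows. The Mcpt1 and Mcpt4 windows were alike over 249 of 291 aligned bases (85.6%), and both place TGATAA upstream of a TATAAA word. Cpa3 also held TATAAA after its GATA word, at position −31. TATAAA was held by 13.6% of all windows. The RUNX words TGTGGT and TGCGGT were searched as well and are not marked. A RUNX word lay in a window of every gene matched, Mcpt8 and Prss34 included, against 22.4% of all windows. A match describes letters and not a bound site.

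The first comparison asked how the proteases differ in cells given SETBP1-D868N. Mast cell proteases were lower and basophil proteases higher. Of the 8 mast cell genes, 7 passed the genome-wide threshold as lower (edgeR adjusted p under 0.05), where 22.7% of all tested genes did. Both basophil genes passed as higher, where 24.5% of all tested genes did. The groups did not overlap for these 9 genes, where 27.3% of all tested genes were lower and 29.4% higher without overlap. The median log2 fold change was −0.88 over the mast cell genes and 0.74 over the basophil genes, against 0.0043 over the 15794 genes tested. In bulk RNA, fewer cells of a type and less of a transcript per cell cannot be told apart.

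**Figure D1:**
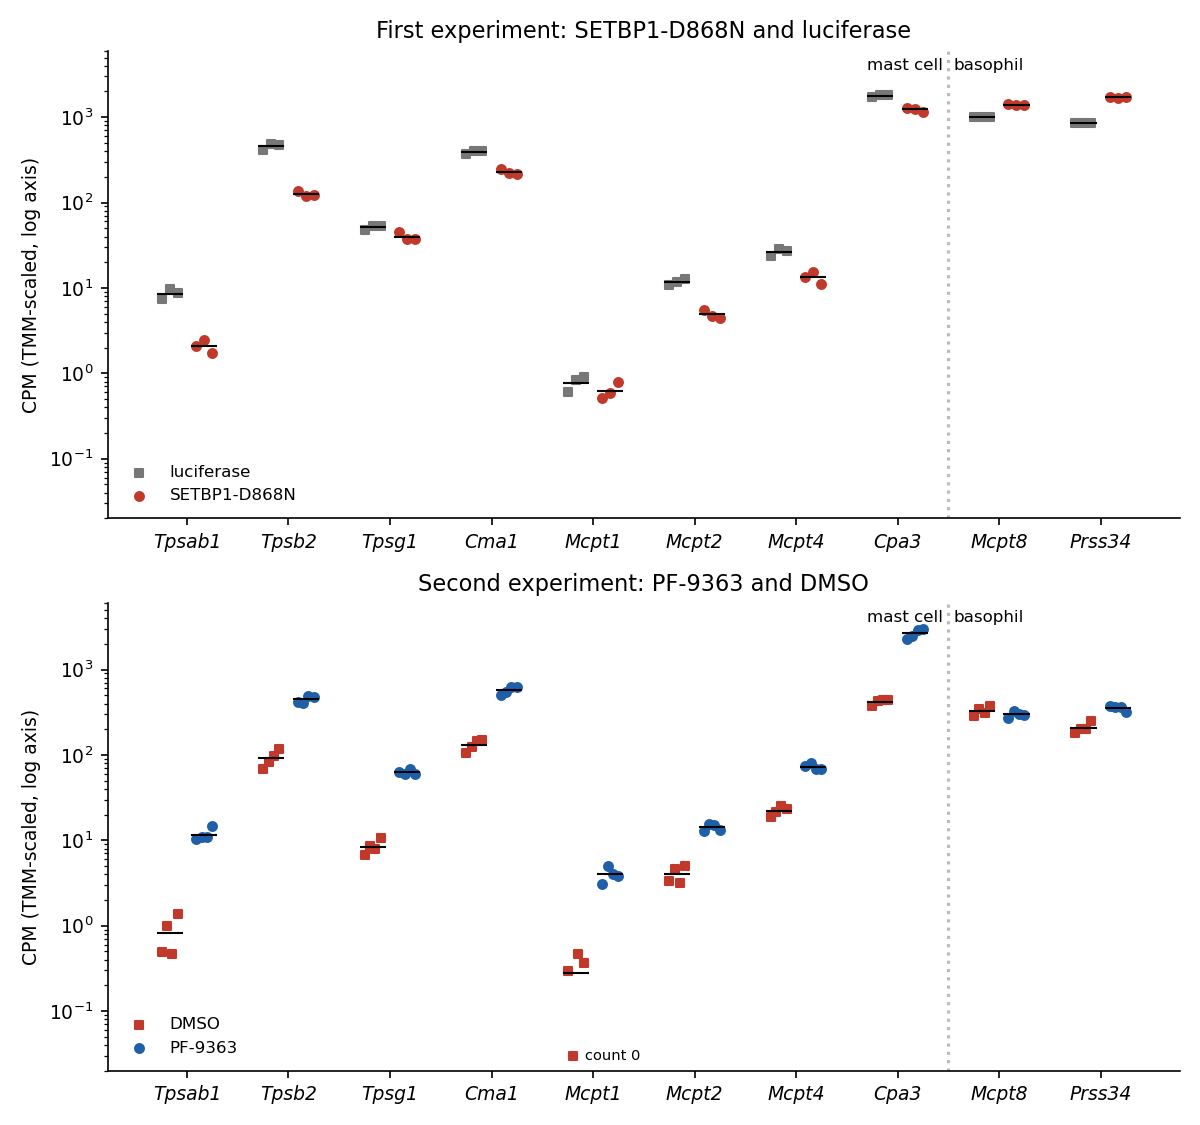
CPM of each protease gene in every library (log axis), with 1 point per library and a bar at the group mean. The upper panel shows luciferase and SETBP1-D868N, the lower panel DMSO and PF-9363, and the dotted line separates mast cell from basophil genes. The 1 library with a count of 0 (Mcpt1, DMSO 2) is drawn at the foot of the axis. The 3 SETBP1-D868N points of Cpa3 lie under the luciferase points and those of Prss34 above them.

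The tryptases showed the largest and the smallest called differences of the mast cell group. Tpsb2, the main mouse tryptase here, stood at 417, 489 and 474 CPM in luciferase libraries 1 to 3 and at 136, 119.9 and 123 CPM in SETBP1-D868N libraries 1 to 3. The groups were far apart, with means of 459.8 ± 38.1 and 126 ± 8.56 CPM and a log2 fold change of −1.86 (SE 0.082). Tpsab1 was rarer, at 7.43, 9.70 and 8.61 CPM against 2.09, 2.46 and 1.75 CPM. Its luciferase libraries were all above its SETBP1-D868N libraries, with a log2 fold change of −2.03 (SE 0.14). Tpsg1, a tryptase that stays anchored in the membrane, went from 48.2, 53.6 and 52.7 CPM to 44.9, 37.7 and 36.9 CPM. The groups came close to each other without overlapping, and the log2 fold change was −0.37 (SE 0.084).

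Among the chymases, Cma1, the alpha-chymase, was the most abundant. It stood at 372, 404 and 405.5 CPM with luciferase and at 249.5, 224 and 214 CPM with SETBP1-D868N. The groups did not overlap, and the log2 fold change was −0.78 (SE 0.065). Mcpt2, a mucosal-type beta-chymase, fell from a mean of 11.7 ± 0.966 CPM to one of 4.88 ± 0.564 CPM (log2 fold change −1.26, SE 0.091). Mcpt4, the connective tissue type beta-chymase, fell from 26.3 ± 2.53 CPM down to 13.3 ± 2.01 CPM (log2 fold change −0.99, SE 0.13). Mcpt1, a mucosal-type chymase, had the fewest counts of all members, with 40, 54 and 54 counts against 34, 38 and 52 counts. Its groups overlapped, and its log2 fold change of −0.30 (SE 0.23) was not called.

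Cpa3, which trims peptides alongside chymase, supplied most of the mast cell protease counts. It stood at 1725, 1817 and 1823 CPM with luciferase and at 1268, 1262 and 1165 CPM with SETBP1-D868N. Every SETBP1-D868N library was below every luciferase library, by a log2 fold change of −0.54 (SE 0.036), which is smaller in size than that of Cma1 or Tpsb2. Cpa3 held 64.6% to 66.2% of the summed mast cell protease counts in luciferase libraries and 73.7% to 75.7% in SETBP1-D868N libraries.

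The basophil genes moved upward with little spread. Mcpt8, a protease restricted to basophils in the mouse, stood at 1002, 1000.2 and 995 CPM with luciferase and at 1409, 1399 and 1379.9 CPM with SETBP1-D868N. The groups were separate, and the log2 fold change was 0.48 (SE 0.022). Prss34, a basophil and mast cell tryptase-like protease, stood at 862, 848 and 854 CPM and then at 1723, 1671 and 1745 CPM. It rose 2.00-fold, a log2 fold change of 1.00 (SE 0.025). Their coefficient of variation between libraries of a group was 0.357% to 2.23%, while that of the mast cell genes was 3.08% to 22.1%.

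The other comparison set PF-9363 against DMSO in cells that all carry SETBP1-D868N. Mast cell proteases were several-fold higher with PF-9363, Prss34 was modestly higher, and Mcpt8 was nearly level. All 8 mast cell genes and Prss34 passed as higher, where 36.6% of all tested genes did. The number called lower was 0, where 39.4% of all tested genes were, and 0 members were lower at an unadjusted p under 0.05 in edgeR or at an adjusted p under 0.05 in DESeq2. The median log2 fold change was 2.48 over the mast cell genes and 0.32 over the basophil genes, against −0.038 over the 13456 genes tested. The groups did not overlap for the 9 genes called higher, where 34.0% of all tested genes were higher and 36.3% lower without overlap. Lower with SETBP1-D868N and higher with PF-9363 were 7 of the 10 genes, where 16.8% of the 12376 genes tested in both experiments were.

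Tpsb2 stood at 68.1, 82.5, 98.4 and 117.7 CPM in DMSO libraries 1 to 4 and at 413, 402, 491 and 479 CPM in PF-9363 libraries 1 to 4. All PF-9363 libraries lay above all DMSO libraries, with a log2 fold change of 2.28 (SE 0.18). Tpsab1 stood at 0.495, 0.996, 0.467 and 1.36 CPM with DMSO, from 5, 10, 5 and 15 counts, and at 10.3, 10.8, 10.9 and 14.7 CPM with PF-9363. Its log2 fold change of 3.79 (SE 0.27) therefore starts from few counts. Tpsg1 stood at 6.73, 8.46, 7.85 and 10.6 CPM with DMSO and at 63.1, 59.7, 67.9 and 59.96 CPM with PF-9363. This was a log2 fold change of 2.89 (SE 0.11) with no overlap.

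Tpsg1 overlaps Cacna1h, a calcium channel gene on the opposite strand, and the strand handling of the counting is not given in the sources used here. Cacna1h held 2 to 6 counts in each library of the first experiment, where Tpsg1 held 2450 to 3488. In the second experiment Cacna1h held 15, 28, 32 and 41 counts with DMSO and 304, 188, 174 and 232 with PF-9363, beside 68, 85, 84 and 117 and then 614, 464, 437 and 554 counts of Tpsg1. Both rows were higher with PF-9363, and the part of either in the counts of the other was not tested. The other 9 genes overlap no annotated gene on the opposite strand.

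Cma1 stood at 104, 125, 144 and 149.8 CPM with DMSO and at 507, 545, 621 and 618 CPM with PF-9363. The groups were apart, with a log2 fold change of 2.13 (SE 0.11). Mcpt4 rose from 22.2 ± 2.77 to 72.2 ± 5.47 CPM and Mcpt2 from 4.03 ± 0.889 to 14.2 ± 1.29 CPM. These were the smaller rises of the mast cell group, at 1.70 (SE 0.094) for Mcpt4 and 1.80 (SE 0.17) for Mcpt2 on the log2 scale. Mcpt1 held 3, 0, 5 and 4 counts with DMSO and 30, 39, 26 and 35 with PF-9363. The count of 0 in DMSO library 2 allows up to 0.326 CPM (3 counts of the library total, counting error only). Its log2 fold change was 3.73 (SE 0.43), the widest error of the group.

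Cpa3 stood at 369, 429, 444 and 434 CPM with DMSO and at 2294, 2501, 2879 and 3023 CPM with PF-9363. The lowest PF-9363 library was several times the highest DMSO library, and the gene rose 6.38-fold, a log2 fold change of 2.67 (SE 0.085). It was the member with the most counts in PF-9363 libraries, where it held 67.9% to 70.6% of the summed mast cell protease counts. In DMSO libraries that share was 58.5% to 64.7%.

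Mcpt8 stood at 288, 343, 309 and 371 CPM with DMSO and at 268, 326, 303 and 297 CPM with PF-9363. The groups overlapped, and the log2 fold change of −0.14 (SE 0.074) was not called. With scaling by library size alone it was −0.37 and called lower, and it was also called without the expression filter (−0.16) and without DMSO replicate 1 (−0.20). Prss34 stood at 182, 199, 201 and 249 CPM with DMSO and at 370.4, 365, 362 and 321 CPM with PF-9363. It rose by a log2 fold change of 0.77 (SE 0.079), or 0.54 with scaling by library size alone. That scaling moved the median of all tested genes from −0.038 to −0.27, so the size of every change in this experiment is relative to the scaling.

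**Figure D2:**
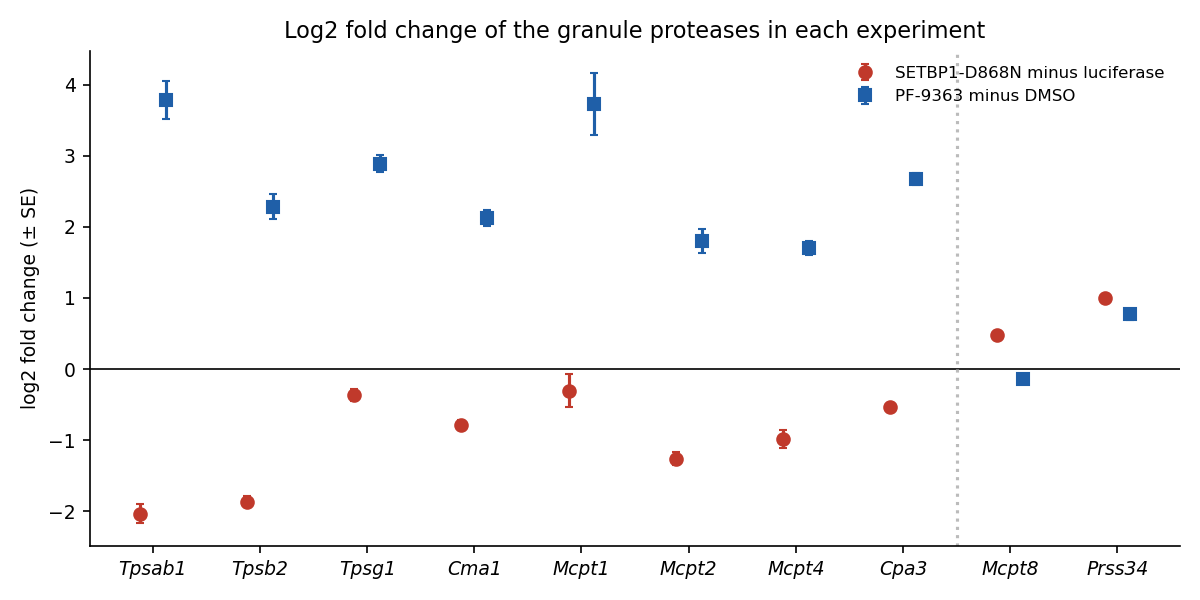
Log2 fold change of each protease with its SE, for SETBP1-D868N minus luciferase (circles, 3 libraries against 3) and PF-9363 minus DMSO (squares, 4 against 4). The 8 mast cell genes lie below 0 in the first contrast and above 0 in the second, from −2.03 to −0.30 and from 1.70 to 3.79. Mcpt8 and Prss34, right of the dotted line, lie above 0 in the first contrast.

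Summed over genes with Cpa3 included, the mast cell and basophil proteases changed order between groups. Mast cell proteases summed to 2741 ± 118.5 CPM and basophil proteases to 1854 ± 8.62 CPM with luciferase. With SETBP1-D868N the sums were 1648 ± 82.9 and 3109 ± 33.9 CPM. The ratio of mast cell to basophil counts was 1.40, 1.52 and 1.52 in luciferase libraries 1 to 3 and 0.549, 0.543 and 0.498 in SETBP1-D868N libraries 1 to 3. The mean log2 ratio differed by −1.48. Without Cpa3 the log2 ratio was −1.08, −0.891 and −0.914 in luciferase libraries 1 to 3. It was then −2.79, −2.93 and −2.99 in SETBP1-D868N libraries 1 to 3. Basophil counts thus exceeded the remaining mast cell counts in both groups, and the change of order rests on Cpa3.

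In the second experiment the sums were 677 ± 76.7 and 535 ± 63.6 CPM with DMSO and 3858 ± 430.3 and 653 ± 31.6 CPM with PF-9363. The ratio was 1.22, 1.24, 1.42 and 1.20 in DMSO libraries 1 to 4 and 5.29, 5.24, 6.26 and 6.92 in PF-9363 libraries 1 to 4, a difference in the mean log2 ratio of 2.22. Without Cpa3 the log2 ratio was −1.22, −1.16, −0.869 and −1.01 in DMSO libraries 1 to 4. It was then 0.763, 0.693, 0.944 and 1.02 in PF-9363 libraries 1 to 4. The ratio does not depend on scaling, since both sums come from the same library. Together the 10 genes took 0.452% ± 0.013 of all counts with luciferase, 0.484% ± 0.0091 with SETBP1-D868N, 0.131% ± 0.014 with DMSO and 0.416% ± 0.031 with PF-9363. The DMSO and SETBP1-D868N groups carry the same mutant but differ in library kit, input and depth, and their levels were not compared.

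**Figure D3:**
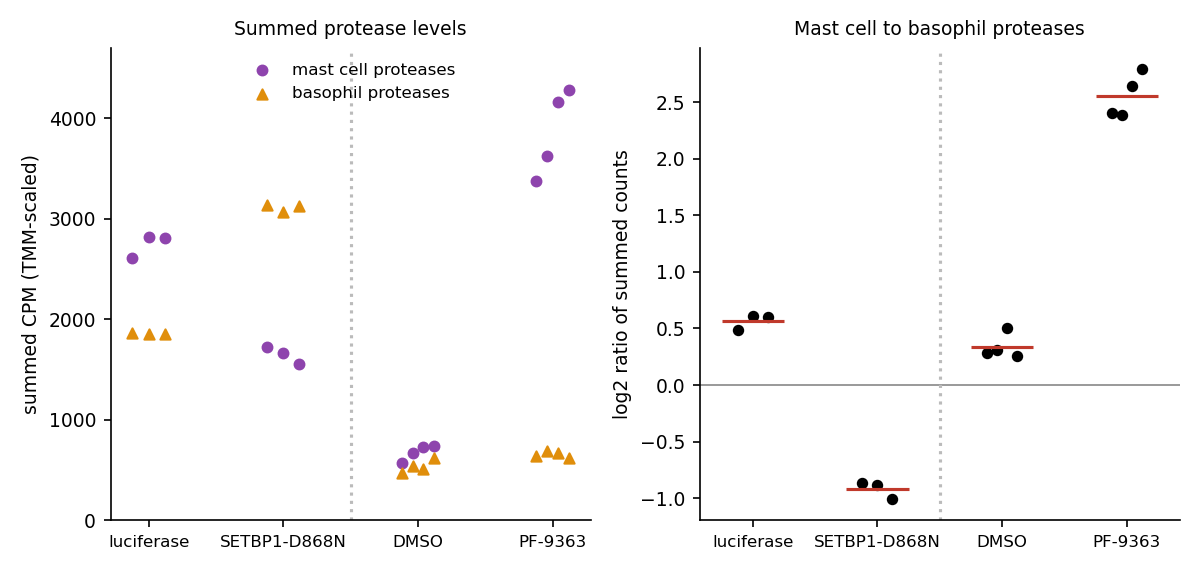
Left: summed CPM of the 8 mast cell genes (circles) and the 2 basophil genes (triangles) in each library. Right: log2 ratio of their summed counts, with 1 point per library and a line at the group mean. Basophil proteases exceed mast cell proteases in the 3 SETBP1-D868N libraries of the first experiment and in no other library. Without Cpa3 they also exceed them in every luciferase and DMSO library. The 4 DMSO libraries carry the same mutant, and their ratios of mast cell to basophil counts are 1.20 to 1.42.

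Levels were ordered per kilobase of exon, in CPM per kb. With luciferase the order was Cpa3 (1179 ± 36.3), Mcpt8 (1001 ± 3.57), Prss34 (701 ± 5.68), Cma1 (361 ± 17.3) and Tpsb2 (288 ± 23.9), followed by Tpsg1, Mcpt4, Mcpt2, Tpsab1 and Mcpt1. No neighbours in that order overlapped between libraries. With SETBP1-D868N, Prss34 (1404 ± 31.3) and Mcpt8 (1399 ± 14.6) led and overlapped each other, ahead of Cpa3 (812 ± 38.2). With DMSO, Mcpt8 (328 ± 36.9) and Cpa3 (276 ± 22.3) led and overlapped. With PF-9363, Cpa3 (1763 ± 221) and Cma1 (525 ± 51.5) led, and Mcpt8 (299 ± 23.9), Prss34 (291 ± 18.5) and Tpsb2 (280.04 ± 28.4) could not be ordered. Tpsab1 and Mcpt1 were the lowest 2 members in all 4 groups.

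Genes of both cell types are neighbours in each cluster. In the chymase cluster the mast cell genes from Cma1 to Mcpt4 had negative log2 fold changes with SETBP1-D868N and positive ones with PF-9363, while Mcpt8, next to Mcpt4, had 0.48 and −0.14. Mcpt-ps1, a chymase pseudogene beside Cma1, fell from 5.91 ± 0.697 to 1.90 ± 0.109 CPM with SETBP1-D868N (log2 fold change −1.64, edgeR adjusted p 4.28e-07). It rose from 1.64 ± 0.361 to 12.7 ± 3.17 CPM with PF-9363 (2.93, edgeR adjusted p 2.86e-12). Cma2, which overlaps Mcpt-ps1 on the opposite strand, fell with SETBP1-D868N from 0.894 ± 0.0887 to 0.547 ± 0.0848 CPM (log2 fold change −0.71, edgeR adjusted p 0.0108) and was too low to test in the second experiment. Strand handling is not given, and the part of Mcpt-ps1 in the counts of Cma2 was not tested. Mcpt9, between Mcpt1 and Mcpt2, held 1 count in 1 luciferase library and 0 in every other library.

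In the tryptase cluster, Prss28 lies between Prss34 and Tpsab1. It held 131, 171 and 123 counts with luciferase and 265, 268 and 282 with SETBP1-D868N (log2 fold change 0.90, edgeR adjusted p 7.70e-05), in the direction of Prss34 and not of the tryptases. Prss28 and Cma2 were named after their values were seen. Prss28 held 2 to 5 counts with DMSO and 5 to 13 with PF-9363 and was not tested there. Prss29 held at most 4 counts in any library.

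**Figure D4:**
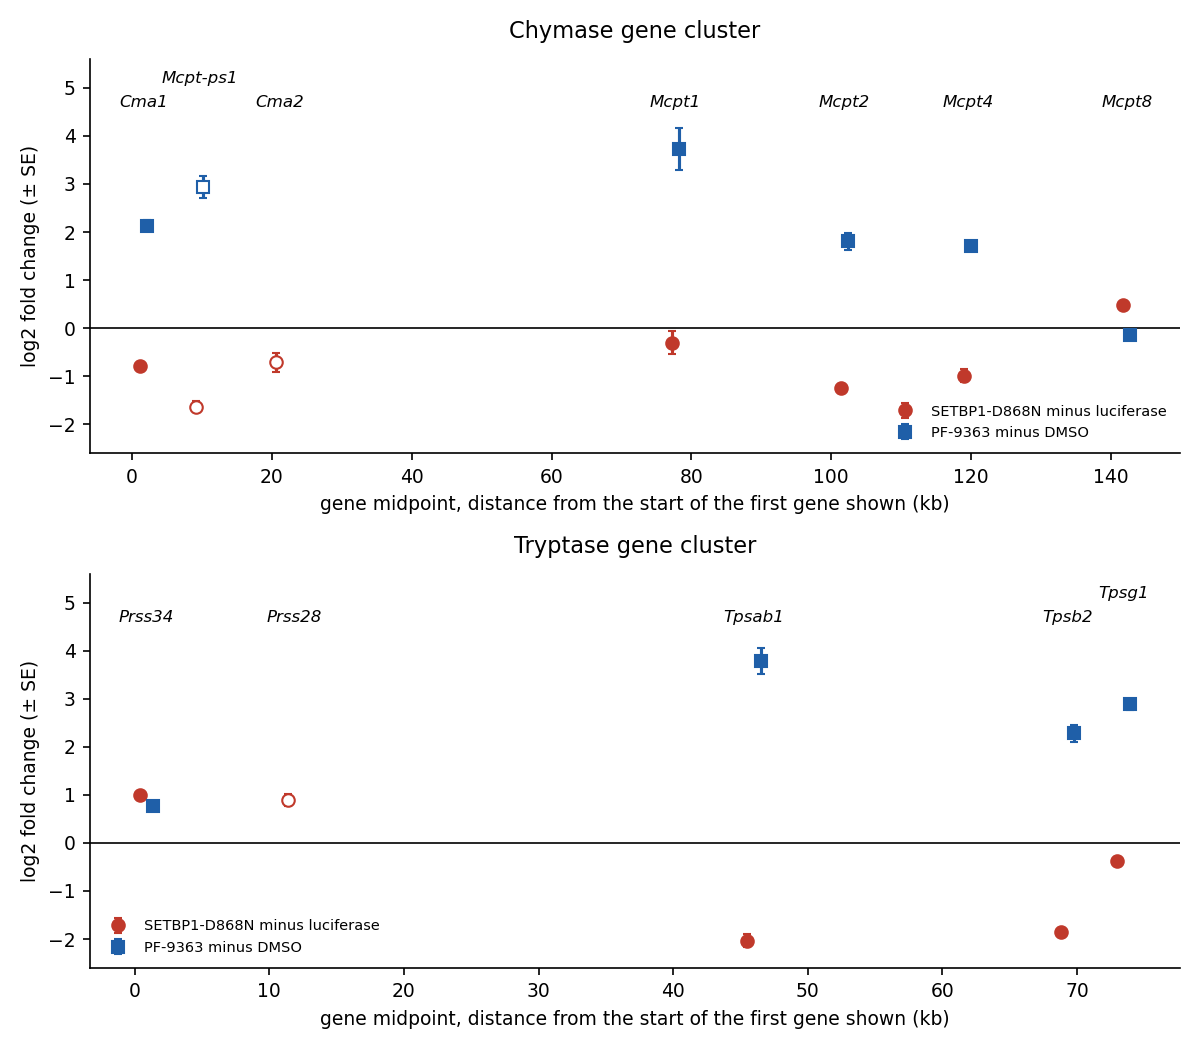
Log2 fold change with SE of each tested gene against the distance of the gene midpoint from the first gene start of its cluster (kb), for SETBP1-D868N minus luciferase (circles) and PF-9363 minus DMSO (squares). Filled symbols are the proteases described here and open symbols their tested neighbours Mcpt-ps1, Cma2 and Prss28. In each cluster the basophil gene at an end of the span shown lies above 0 in the first contrast, at 0.48 for Mcpt8 and 1.00 for Prss34.

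Other relatives of the chymases include cathepsin G and the granzymes, and those tested did not share 1 direction. Ctsg, cathepsin G of neutrophil and mast cell granules, rose with SETBP1-D868N from 616 ± 5.46 to 934 ± 24.1 CPM (log2 fold change 0.60, edgeR adjusted p 1.25e-08). With PF-9363 it fell from 1007 ± 78.5 to 324 ± 60.2 CPM (−1.63, edgeR adjusted p 7.30e-07). Gzmb, granzyme B, rose in both, by 0.65 (edgeR adjusted p 4.52e-05) and 1.90 (edgeR adjusted p 3.63e-05). Of the 11 relatives listed, 5 were tested in the first experiment. Of these, 3 were called higher and 2 lower, against 24.5% and 22.7% of all tested genes.

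Genes of granule storage and protease processing were taken from a list of 18, none of them a protease above. With SETBP1-D868N, 8 rose and 7 fell, where 24.5% of all tested genes were called higher and 22.7% lower, and the median log2 fold change was −0.001. Srgn, the serglycin core protein that holds the proteases, rose from 1412 ± 26.2 to 1675 ± 41.5 CPM (log2 fold change 0.25, edgeR adjusted p 1.09e-05). Lyst, a regulator of lysosome and granule size, fell by 1.02 on the log2 scale (edgeR adjusted p 0.0153), and Ctse, an aspartic protease of granules, fell by 0.26 (edgeR adjusted p 5.90e-04). Differences in this list were thus mostly smaller than those of the proteases.

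With PF-9363, 14 of the 18 rose and 3 fell, where 36.6% of all tested genes were called higher and 39.4% lower. The median was 1.13. Rab27b, a GTPase of granule secretion, rose from 10.7 ± 1.45 to 98.8 ± 9.23 CPM (log2 fold change 3.21, edgeR adjusted p 2.07e-21). Slc18a2, the transporter that loads histamine into granules, rose from 27.1 ± 2.86 to 229 ± 19.8 CPM (3.08, edgeR adjusted p 6.41e-23). The lysosomal protease Ctsl and the aspartic protease Ctse rose by 2.73 (edgeR adjusted p 1.48e-06) and 2.22 (edgeR adjusted p 1.67e-17). Ctsc, the dipeptidyl peptidase that activates chymase and tryptase precursors, rose from 260 ± 6.57 to 575 ± 23.3 CPM (1.15, edgeR adjusted p 1.17e-16). Srgn went the other way, from 1870.2 ± 80.3 to 1020.3 ± 83.3 CPM (−0.87, edgeR adjusted p 6.75e-13).

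Protease inhibitors were a list of 12, with 11 tested in each experiment. With SETBP1-D868N, 6 fell and 4 rose, against 22.7% and 24.5% of all tested genes. Serpinb6b, an inhibitor of serine proteases inside cells, fell by 0.98 on the log2 scale (edgeR adjusted p 1.01e-06), Spint1 by 0.84 (edgeR adjusted p 1.50e-07) and Serpinb9, an inhibitor of granzyme B, by 0.77 (edgeR adjusted p 1.38e-06). With PF-9363, 6 rose and 2 fell, against 36.6% and 39.4% of all tested genes, with Serpina3g at a log2 fold change of 1.80 (edgeR adjusted p 1.37e-12) and Spint2 at −1.14 (edgeR adjusted p 5.04e-12). A2m held 0 counts in every library of both experiments.

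Transcription factors known from mast cell and basophil development were a list of 20. With SETBP1-D868N, 10 fell and 5 rose, around a median of −0.065, against 22.7% lower and 24.5% higher of all tested genes. Mitf, a factor that activates mast cell protease genes, fell from 25.5 ± 0.564 to 16.6 ± 0.497 CPM (log2 fold change −0.62, edgeR adjusted p 4.82e-07), and Bhlhe40 fell by 0.71 (edgeR adjusted p 1.22e-07). Myb and Ikzf2 rose by 0.82 (edgeR adjusted p 8.96e-09) and 0.78 (edgeR adjusted p 3.56e-08). Gata1 had a log2 fold change of 0.045 and was not called (edgeR adjusted p 0.302), while Gata2 was called higher at 0.21 (edgeR adjusted p 3.29e-05).

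With PF-9363, 15 of 19 tested factors rose and 3 fell, with a median of 0.53, against 36.6% higher and 39.4% lower of all tested genes. Gata2, which serves both lineages, rose from 56.0 ± 3.54 to 296 ± 24.7 CPM (log2 fold change 2.40, edgeR adjusted p 5.39e-22). Tal1 rose by 2.31 (edgeR adjusted p 4.66e-16), and Mitf rose from 11.4 ± 2.10 to 47.0 ± 2.90 CPM (2.05, edgeR adjusted p 1.42e-15). Myb and Gfi1 fell by 2.71 (edgeR adjusted p 1.06e-05) and 2.26 (edgeR adjusted p 1.62e-07). Over all 69 related genes, which comprise the cluster relatives, storage and processing genes, inhibitors and factors, 21 were called higher (38.2%) and 25 lower (45.5%) of 55 tested with SETBP1-D868N, beside 24.5% and 22.7% of all tested genes. With PF-9363, 37 were called higher (72.5%) and 9 lower (17.6%) of 51 tested, beside 36.6% and 39.4% of all tested genes.

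**Figure D5:**
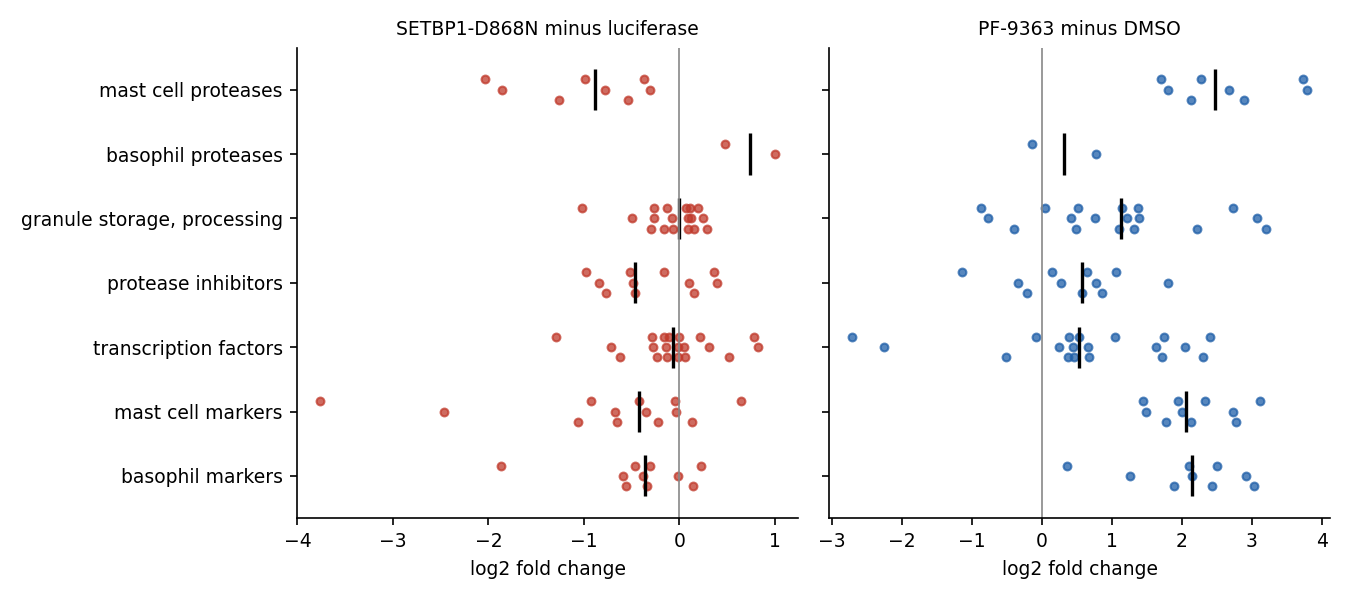
Log2 fold change of each tested gene (points) and the median of each list (black bar), for SETBP1-D868N minus luciferase on the left and PF-9363 minus DMSO on the right. The mast cell and basophil proteases are shown above 5 lists of other genes. The median of the mast cell proteases is −0.88 and then 2.48, and that of the mast cell markers −0.42 and then 2.07.

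Surface and metabolic markers of mast cells other than proteases were a list of 13. They are not all particular to mast cells, since Fcer1a and Ms4a2 encode chains of the IgE receptor that basophils also carry. With SETBP1-D868N, 8 fell and 2 rose, with a median of −0.42, against 22.7% lower and 24.5% higher of all tested genes. Tph1, the enzyme of serotonin synthesis, fell from 173 ± 15.97 to 91.1 ± 9.10 CPM (log2 fold change −0.93, edgeR adjusted p 0.00176). Fcer1a, the IgE-binding receptor chain, and Kit, the SCF receptor, fell by 0.68 (edgeR adjusted p 3.56e-08) and 0.66 (edgeR adjusted p 1.87e-08). Ms4a2, the receptor's beta chain, rose by 0.65 (edgeR adjusted p 9.09e-09). With PF-9363 all 10 tested markers rose (36.6% of all tested genes did), with a median of 2.07, led by Fcer1a from 29.5 ± 5.02 to 256 ± 21.5 CPM (3.11, edgeR adjusted p 5.56e-16). Il1rl1, the IL33 receptor, rose from 109.7 ± 15.3 to 751 ± 69.1 CPM (2.77, edgeR adjusted p 1.53e-15). Mrgprb1 and Mrgprb2, receptors of mature connective tissue mast cells, held at most 3 counts in each library of the second experiment.

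The basophil marker list, of 10 genes outside the proteases, did not follow Mcpt8 and Prss34. Several of its genes, such as Cd200r3, Csf2rb2, Il4 and Il13, are also made by mast cells. With SETBP1-D868N, 5 fell and 2 rose, against 22.7% and 24.5% of all tested genes, and the 2 were Il3ra (log2 fold change 0.23, edgeR adjusted p 0.00182) and Cd200r3 (0.14, edgeR adjusted p 0.00201). Csf2rb2, a chain of the IL3 receptor, fell by 0.58 (edgeR adjusted p 3.72e-08). With PF-9363 all 9 tested genes rose, where 36.6% of all tested genes did, with a median of 2.15. Cd200r3 rose from 35.9 ± 4.58 to 293 ± 42.2 CPM (3.03, edgeR adjusted p 5.21e-12) and Csf2rb2 from 192 ± 12.9 to 1443 ± 92.6 CPM (2.91, edgeR adjusted p 5.13e-24).

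Markers of other cell types moved beside the proteases. With SETBP1-D868N all 8 macrophage markers fell, where 22.7% of all tested genes were called lower and 24.5% higher. Their sum went from 892 to 927 CPM across luciferase libraries to 537 to 568 CPM. The sum of the 8 neutrophil lineage genes went from 24405 to 25418 CPM to 16250 to 18731.5 CPM. The primary granule genes Elane, Mpo and Prtn3 rose, at log2 fold changes of 0.34, 0.40 and 0.28, and the other 5, S100a8, S100a9, Camp, Ltf and Ngp, fell. With PF-9363 all 8 macrophage markers rose, where 36.6% of all tested genes were called higher. Their sums went from 415 to 511 CPM to 3017 to 3632 CPM. The same primary granule genes fell far, Elane from 1450.0 ± 70.4 to 1.74 ± 1.49 CPM (log2 fold change −9.66, edgeR adjusted p 2.07e-09), with log2 fold changes of −8.49 for Mpo (edgeR adjusted p 4.05e-07) and −7.14 for Prtn3 (edgeR adjusted p 5.65e-06). Camp, of secondary granules, fell by 2.15 (edgeR adjusted p 1.03e-18), Ltf rose by 1.11 (edgeR adjusted p 2.26e-15), and S100a8, S100a9 and Ngp were not called. Itga2b, the megakaryocyte integrin chain, rose by 2.65 (edgeR adjusted p 1.41e-22), and Nkg7, a gene of cytotoxic lymphocytes, fell by 4.61 (edgeR adjusted p 5.98e-20). Eosinophil markers went from 654 to 847 CPM to 254 to 350.01 CPM. Of 7 tested, 6 were called lower, where 39.4% of all tested genes were. The part of these shifts in the protease values was not tested.

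The genes whose profile was most like the mean of the 8 mast cell proteases were ranked by Pearson's r of log2 CPM over the 14 libraries, centred within each experiment. Among 12376 genes tested in both, the closest outside the proteases were Ceacam10 (r = 0.997), Plbd1 (0.996), Tph1 (0.996), Arhgap20 (0.996) and Alox5ap (0.995). Each was called lower with SETBP1-D868N and higher with PF-9363, where 16.8% of the genes tested in both were. They were picked for likeness to a mean with those directions, so these calls largely follow from the choice. Ceacam10 went from 84.7 ± 4.37 to 53.5 ± 4.09 CPM in the first experiment and from 53.1 ± 5.48 to 169 ± 8.79 CPM in the second. Among the members, r was 0.926 to 0.997 for the mast cell genes, 0.391 for Prss34 and −0.474 for Mcpt8. Each mast cell gene is itself part of the mean, which raises its r, while Prss34 and Mcpt8 are not. By this r the mast cell genes ranked from 2 (Cma1) to 1871 (Mcpt1) among the 12376 genes, with Cpa3 at 223. Many genes outside the proteases were thus closer to the mean than most mast cell proteases were. The libraries share 2 group steps that set most of such a correlation, so it is given as a description.

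Similar sequence can divide reads between family members. The longest exact stretch shared by transcripts of 2 members was 49 bases for Mcpt1 and Mcpt2, 46 for Mcpt1 and Mcpt4 and 39 for Tpsab1 and Tpsb2. No 2 members shared a word of 50 bases, while Mcpt4 shared 5.48% of its words with Cma2 and 0.661% with Mcpt9. Counts of these genes are uncertain to the extent that the counting assigned reads from such stretches, and how it did so is not given in the sources used here.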

How the data were processed

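Total RNA was made into sequencing libraries (an mRNA kit in the first experiment, a service laboratory in the second) and sequenced in 14 libraries of mouse lineage-negative marrow cells. Each experiment has 1 table that the authors deposited, holding whole-number raw read counts for gene symbols. STAR and DESeq2 and the builds GRCm38 and mm10 appear without roles in the submitters' processing notes, while the counting program, annotation and strand handling are not given in the sources used here. All columns were mapped to samples by the labels. From the counts, edgeR 4.0.16 in R 4.3.3 was used per experiment: filterByExpr (minimum count 10, total 15), TMM, robust quasi-likelihood fit and test with the group as the single factor, Benjamini-Hochberg adjustment over 15794 and 13456 genes, called under 0.05. SE is the absolute log2 fold change over the square root of F. Sums and ratios used raw or scaled counts. Positions and exon lengths came from GENCODE M21.

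Members and lists were chosen with earlier results of these data known. Besides the 10 members, named genes are at most 4 per list and comparison with the largest called change, at least 5 CPM and no overlap, genes at or near 0 or not called, and the 5 most alike. In addition, genes named to show overlap, gene clusters, progenitor state or a role in granule biology or lineage (Setbp1, Cd34, Cacna1h, Cma2, Prss28, Srgn and Ctsc, Gata2, Cd200r3, Elane, Mpo, Prtn3 and S100a9 with SETBP1-D868N, Mitf and Ltf with PF-9363) were chosen after their values were seen. The test was tested on simulated data: of 200 genes changed 2-fold, 90.0% were called in a simulation of SETBP1-D868N against luciferase (15794 genes, 4.76% of calls false) and 90.0% in one of PF-9363 against DMSO (13456 genes, 3.23% of calls false). The rate of recovery or of false calls with as many genes changed as were called here (7448 and 10228) was not tested. Alternatives were RLE factors, library size alone, no filter, DESeq2 1.42.0, a replicate block and leaving out each library.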

Additional observations from a re-analysis of the deposited data

Results flagged for a closer look

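Among 26 groups of 4 libraries examined (10 proteases, 2 sums and their ratio, in DMSO and PF-9363), 1 had a library apart from the rest, where chance flags about 1 in 20. Tpsab1 in PF-9363 library 4 stood at 14.7 CPM, above 10.3, 10.8 and 10.9 CPM in the other libraries, and that gap was 0.866 of the range of the group.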

How the results depend on the processing

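Of 240 recomputed log2 fold changes of the 10 proteases, 237 kept their direction and their side of the threshold, 0 changed sign and 3 gained a call. Those 3 were Mcpt8 with PF-9363, at −0.366 under library size alone, −0.157 without the expression filter and −0.199 without DMSO replicate 1, over a range of −0.366 to −0.078. The number of proteases called lower with PF-9363 was therefore 1 in place of 0 under library size alone and without the filter, and 0 to 1 when single libraries were left out. The other counts of called proteases were 7 lower and 2 higher with SETBP1-D868N and 9 higher with PF-9363 under every alternative run. Counts of related genes stayed within 1.5 times, at 22 to 25 lower and 19 to 24 higher with SETBP1-D868N and at 9 to 11 lower and 33 to 39 higher with PF-9363. Without Cpa3 the difference in the log2 ratio of mast cell to basophil proteases was −1.94 with SETBP1-D868N and 1.92 with PF-9363, and without Tpsb2 it was −1.33 and 2.25, against −1.48 and 2.22.

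Libraries that share a replicate number did not deviate together, with correlations from −0.0968 to −0.0369 for luciferase and SETBP1-D868N and from −0.0402 to 0.00753 for DMSO and PF-9363, and 0 of 6 and 0 of 8 libraries correlated best with their own number. With the replicate number as a block, 6640 genes in place of 7448 and 10124 in place of 10228 were called, and the protease counts were 7 lower and 2 higher with SETBP1-D868N and 9 higher and 0 lower with PF-9363. Depth limits Mcpt1 and Tpsab1 in the second experiment, where DMSO libraries held 0 to 5 and 5 to 15 counts.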
